A study of Mus musculus with 2 samples.

Results

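The 10 genes described here encode enzymes that make serine (Phgdh, Psat1 and Psph), carry one-carbon units on folate (Shmt1, Shmt2, Mthfd1, Mthfd2, Mthfd1l and Aldh1l2) and make asparagine (Asns). They were taken from the deposited gene table by symbol, and all 10 were found among its 18067 genes. Their RNA levels were compared between 1 library from circBtnl1 wild-type mice and 1 library from circBtnl1 knockout mice. The libraries were made from total RNA of cells labelled as intestinal stem cells of the small intestine, and the study set out to find transcription factors that differ between the genotypes. The name circBtnl1 denotes a circular RNA named for the gene Btnl1. Strain, age and sex of the mice, the number of mice behind a library, and the way the cells were isolated were not given in the sources used here.

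Serine is made from the glycolytic intermediate 3-phosphoglycerate in steps carried out by Phgdh, Psat1 and Psph. Serine hydroxymethyltransferases, Shmt1 in the cytosol and Shmt2 in mitochondria, move a carbon from serine to tetrahydrofolate and leave glycine. The carbon is then used for purines, thymidylate and methionine, and separate enzyme sets process it in mitochondria (Mthfd2, Mthfd1l, Aldh1l2) and in the cytosol (Mthfd1, Aldh1l1). Asns makes asparagine from aspartate with nitrogen from glutamine. In mammalian cells short of amino acids, the transcription factor ATF4 is known to induce Asns, the serine synthesis genes and the mitochondrial folate genes. Rapidly dividing crypt cells of the gut are known to need folate for DNA synthesis.

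Promoter sequences of 9 of the 10 genes were found in RefSeq (GRCm38.p6, 250 bases before to 50 bases after an annotated start), in 10 windows, since Psat1 had more than one start. Of the sequences shown here, Asns is the one whose window holds an ATF4-type site, Psat1 and Mthfd2 had the highest knockout to wild-type ratios among the genes with a window, and Shmt1 had the lowest. Capitals mark TGATGNAA (the type of site bound by ATF4 with a C/EBP partner), TGACGT (the core of the cAMP response element) or CCAAT (the box bound by NF-Y), searched on both strands, so that CCAAT on the reverse strand reads ATTGG. No matches overlapped each other in these windows.
Asns, chr6:7693160-7693459, minus strand: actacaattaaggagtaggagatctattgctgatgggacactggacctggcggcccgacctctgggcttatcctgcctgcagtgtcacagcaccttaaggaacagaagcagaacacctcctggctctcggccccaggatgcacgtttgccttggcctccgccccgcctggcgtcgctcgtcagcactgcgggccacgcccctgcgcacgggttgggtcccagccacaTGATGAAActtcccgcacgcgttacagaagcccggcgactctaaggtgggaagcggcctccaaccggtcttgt
Psat1, chr19:15925010-15925309, minus strand: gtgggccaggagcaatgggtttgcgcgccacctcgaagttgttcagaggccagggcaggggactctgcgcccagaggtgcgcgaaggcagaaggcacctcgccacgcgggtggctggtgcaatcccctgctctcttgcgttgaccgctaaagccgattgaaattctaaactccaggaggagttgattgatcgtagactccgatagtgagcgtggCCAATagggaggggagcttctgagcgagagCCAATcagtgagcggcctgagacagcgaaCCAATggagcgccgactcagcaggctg
Mthfd2, chr6:83317555-83317854, minus strand: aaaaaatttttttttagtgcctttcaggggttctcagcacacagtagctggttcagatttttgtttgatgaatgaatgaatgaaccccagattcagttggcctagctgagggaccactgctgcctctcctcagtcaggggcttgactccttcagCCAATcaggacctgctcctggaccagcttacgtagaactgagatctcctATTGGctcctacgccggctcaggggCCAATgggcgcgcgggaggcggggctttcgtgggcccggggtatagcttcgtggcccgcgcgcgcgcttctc
Shmt1, chr11:60811216-60811515, minus strand: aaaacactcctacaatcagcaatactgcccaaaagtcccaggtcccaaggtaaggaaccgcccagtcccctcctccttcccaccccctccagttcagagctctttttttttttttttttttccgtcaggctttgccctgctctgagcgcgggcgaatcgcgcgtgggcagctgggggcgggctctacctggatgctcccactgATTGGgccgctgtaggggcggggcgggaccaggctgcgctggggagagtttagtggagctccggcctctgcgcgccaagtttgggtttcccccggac
The TGATGNAA match in Asns began 23 bases before the start. It was the only match to this motif in the 10 windows, and 3.97% of the 32851 RefSeq windows of the same length hold one. The TGACGT core was found in 2 genes, Psph and Mthfd1l, against 7.51% of all windows. The CCAAT box was found in 6 genes (Phgdh, Psat1, Psph, Mthfd2, Shmt1 and Mthfd1), against 37.4% of all windows. A match is a run of letters in a window and was not tested for binding.

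All 10 enzyme genes stood higher in the knockout library (70.2% of all measured genes did), and 8 of them were 2-fold or more higher. Levels are given in TPM, a length-corrected share of each library that allows genes to be compared with each other. Together the 10 genes held 249.6 TPM in wild-type RNA and 1024 TPM in knockout RNA, a 4.10-fold difference. Their median log2 ratio of knockout to wild-type, computed on TPM + 0.1, was 1.88. The same median over all 12666 genes whose mean reached 1 TPM (called measured below) was 0.39, so the typical gene also stood higher in the knockout library. Of all measured genes 23.1% were 2-fold or more higher and 5.25% 2-fold or more lower in the knockout library, beside 8 and 0 of the 10 enzyme genes. Relative to the median gene, 7 of the 10 remained 2-fold or more higher, against 13.5% of measured genes. There was 1 library per genotype, so no difference could be set against a spread between mice, and none was tested. In bulk RNA, fewer cells of a type and less RNA per cell cannot be told apart.

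**Figure D1:**
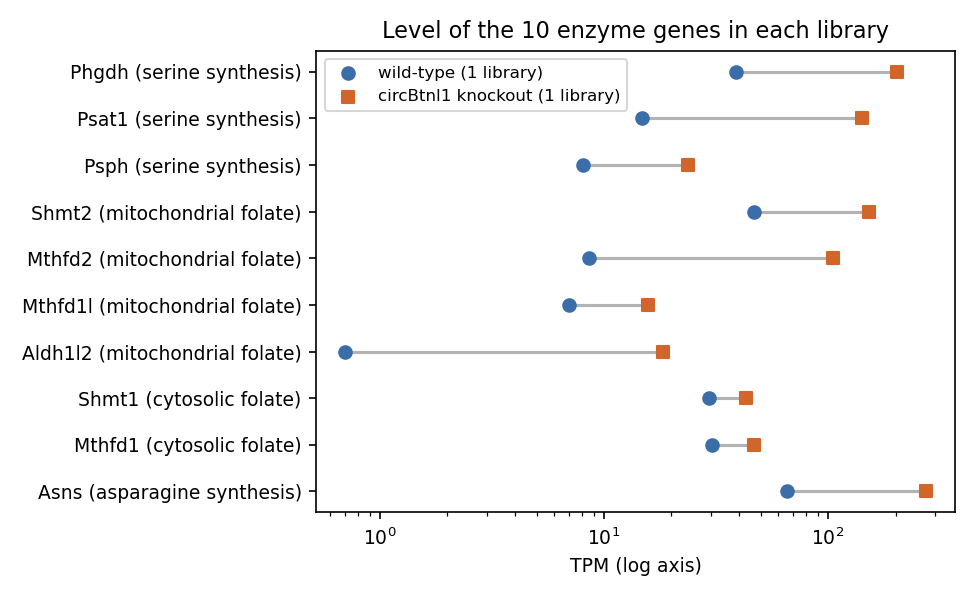
Level of each of the 10 enzyme genes in TPM (log axis) in the wild-type library (blue circles) and the circBtnl1 knockout library (orange squares), 1 library each, joined by a grey line. The orange square lies to the right for every gene, with the longest line for Aldh1l2 (0.70 against 18.4 TPM) and the shortest for Shmt1 (29.4 against 43.2 TPM).

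**Figure D2:**
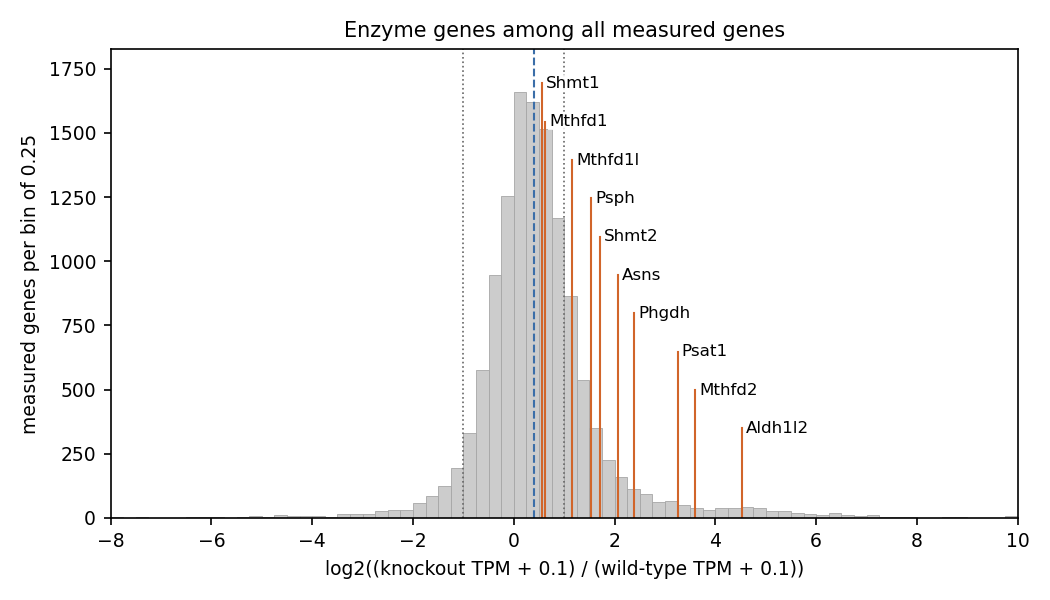
Number of measured genes (12666 in all) per bin of 0.25 in log2 ratio of knockout to wild-type TPM + 0.1, with orange lines at the 10 enzyme genes, a dashed blue line at the median gene (0.39) and dotted lines at a 2-fold difference. The end bins also hold the 1 gene below and the 5 genes above the axis range. Shmt1 and Mthfd1 lie beside the median gene, and the other 8 lie to the right of the upper dotted line.

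The serine synthesis genes were higher at each step, with the largest ratio at the middle step. Phgdh (Entrez gene 236539, chromosome 3, 98313170 to 98339990 in GRCm38 as are all positions here, minus strand, 12 exons) encodes phosphoglycerate dehydrogenase, the entry enzyme of the pathway. It stood at 38.8 TPM in wild-type RNA and 203 TPM in knockout RNA, 5.25-fold higher, and moved from rank 3720 to rank 800 by level among all genes. Psat1 (Entrez gene 107272, chromosome 19, 15904678 to 15947337, minus strand, 9 exons), the phosphoserine aminotransferase, stood at 14.8 against 142 TPM, 9.57-fold higher. Psph (Entrez gene 100678, chromosome 5, 129765558 to 129787449, minus strand, 8 exons), the phosphatase that releases serine, stood at 8.07 against 23.6 TPM, 2.92-fold higher. The log2 ratios were 2.39 for Phgdh, 3.25 for Psat1 and 1.54 for Psph, and all 3 remained 2-fold or more higher after the 0.39 of the median gene was taken off. The order of levels, Phgdh above Psat1 above Psph, was the same in both libraries, but the spacing differed. Phgdh stood 2.61 times above Psat1 in the wild-type library and 1.43 times above it in the knockout library, while Psat1 stood 1.84 times above Psph in the wild-type and 6.02 times above it in the knockout library. These within-library ratios do not depend on how a library is scaled.

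The values of Phgdh and Psph carry limits from similar or overlapping sequence. The Phgdh transcript had 21 near copies among annotated transcripts of other genes (at least 90% identity over at least 100 bases, up to 98.7% identity), chiefly processed pseudogenes, and none (0) of them was listed in the table. Psat1 and Shmt2 had 1 such copy each, at 91.0% and 90.1% identity. Psph shares 452 exon bases with Cct6a, a chaperonin subunit gene on the opposite strand, which itself stood at 80.1 against 329 TPM. The sources used here do not say if the libraries kept strand, so reads from the shared stretch cannot be assigned to either gene.

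The mitochondrial folate genes spanned the widest range of ratios. Shmt2 (Entrez gene 108037, chromosome 10, 127517123 to 127522444, minus strand, 12 exons), which splits serine into glycine and a one-carbon unit, stood at 46.7 TPM in wild-type RNA and 153 TPM in knockout RNA, 3.27-fold higher. Mthfd2 (Entrez gene 17768, chromosome 6, 83305691 to 83325908, minus strand, 8 exons), the dehydrogenase and cyclohydrolase known for its high level in embryonic and tumour tissue, stood at 8.57 against 105 TPM, 12.3-fold higher. By level it moved from rank 8150 to rank 1648. Mthfd1l (Entrez gene 270685, chromosome 10, 3973118 to 4167081, plus strand, 28 exons), which makes the formate that leaves the mitochondrion, stood at 6.98 against 15.8 TPM, 2.26-fold higher. This was the smallest ratio in the group, and relative to the median gene (log2 ratio 0.77) Mthfd1l was within 2-fold.

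Aldh1l2 (Entrez gene 216188, chromosome 10, 83487450 to 83534140, minus strand, 23 exons), the mitochondrial formyltetrahydrofolate dehydrogenase, went from the lowest level of the 10 genes to just above Mthfd1l. It stood at 0.70 TPM in wild-type RNA and 18.4 TPM in knockout RNA, and its log2 ratio of 4.53 ranked 250 of the 12666 measured genes. The wild-type value corresponds to about 38 reads at the depth estimated from the table, and the knockout value to about 893. Only the knockout value was above 1 TPM, so Aldh1l2 counted as measured through the knockout library. With a pseudocount of 1 TPM in place of 0.1 TPM the log2 ratio was 3.51. Aldh1l2 shares 1056 exon bases of its 6027-base transcript with D10Wsu102e on the opposite strand, which stood at 12.9 against 18.2 TPM.

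The cytosolic folate genes among the 10 differed least. Shmt1 (Entrez gene 20425, chromosome 11, 60788104 to 60811718, minus strand, 12 exons), the cytosolic counterpart of Shmt2, stood at 29.4 TPM in wild-type RNA and 43.2 TPM in knockout RNA, 1.47-fold higher. Mthfd1 (Entrez gene 108156, chromosome 12, 76255298 to 76319803, plus strand, 28 exons), which carries out successive folate steps in the cytosol on one protein, stood at 30.2 against 46.7 TPM, 1.54-fold higher. Set against the median gene, their log2 ratios were 0.16 and 0.23, so both stood close to the typical gene of these libraries. Shmt1 shares 184 exon bases with Smcr8 on the opposite strand, which stood at 11.2 against 18.8 TPM.

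Set side by side as pairs, the mitochondrial gene was higher relative to its cytosolic counterpart in the knockout library in each of 3 pairs. Shmt2 stood at 1.59 times Shmt1 in the wild-type and 3.53 times in the knockout library. Mthfd1l stood at 0.231 times Mthfd1 in the wild-type and 0.337 times in the knockout library. This 1.46-fold difference was the smallest of the 3 pairs, and with 1 library each it has no error estimate. The pair that differed most was Aldh1l2 and Aldh1l1. Aldh1l1 (Entrez gene 107747, chromosome 6, 90486427 to 90600203, plus strand), the cytosolic formyltetrahydrofolate dehydrogenase, is outside the 10 genes and stood at 185 TPM in wild-type RNA and 29.0 TPM in knockout RNA, 6.39-fold lower. Aldh1l1 shares 438 exon bases of its 4175-base transcript with the antisense gene Gm15756, so reads from that stretch cannot be assigned to either gene. In the wild-type library Aldh1l1 was 264.8 times as abundant as Aldh1l2, and in the knockout library 1.58 times. The transcripts of the mitochondrial and cytosolic genes did not match each other at the identity used for near copies.

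**Figure D3:**
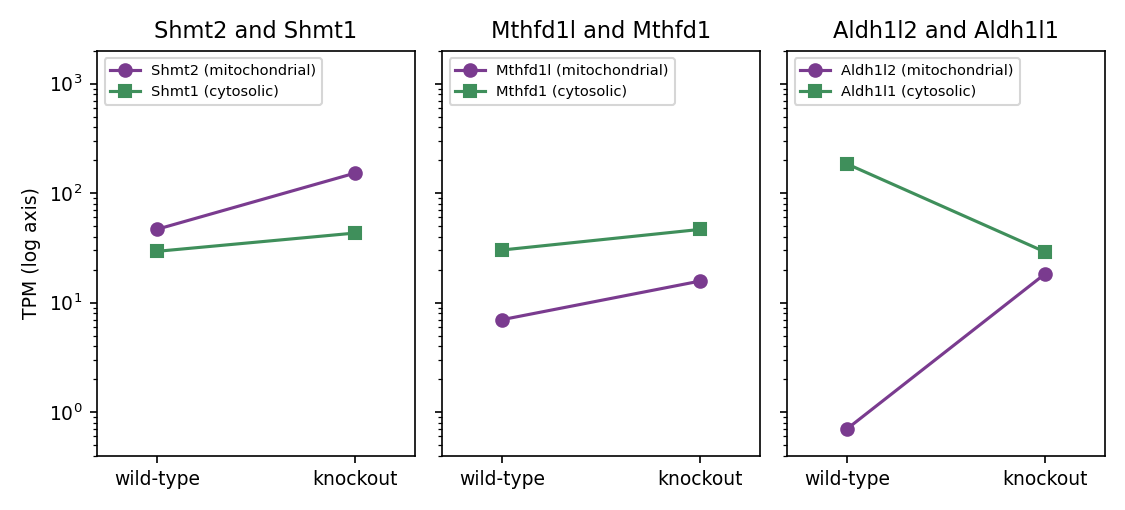
Level in TPM (log axis, the same in each panel) of a mitochondrial folate gene (purple circles) and its cytosolic counterpart (green squares) in the wild-type and the circBtnl1 knockout library, 1 library each. Both lines slope upward for Shmt2 and Shmt1 and for Mthfd1l and Mthfd1, whereas Aldh1l1 goes from 185 to 29.0 TPM and Aldh1l2 from 0.70 to 18.4 TPM.

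The 4 mitochondrial folate genes summed to 62.96 TPM in wild-type RNA and 292 TPM in knockout RNA, and Shmt1, Mthfd1 and Aldh1l1 summed to 245 and 119 TPM. The mitochondrial sum was therefore 0.257 times the cytosolic sum in the wild-type and 2.46 times in the knockout library. Without Aldh1l1, the mitochondrial sum was 1.06 times that of Shmt1 and Mthfd1 in the wild-type and 3.25 times in the knockout library. The median log2 ratio was 2.65 for the mitochondrial and 0.55 for the 3 cytosolic genes, a difference of 2.10.

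Asns (Entrez gene 27053, chromosome 6, 7675169 to 7693254, minus strand, 12 exons), asparagine synthetase, was the most abundant of the 10 genes in both libraries. It stood at 65.3 TPM in wild-type RNA and 273 TPM in knockout RNA, 4.18-fold higher, and moved from rank 2471 to rank 559 by level. Atf4, whose product is known to induce Asns, stood at 155 against 536 TPM, 3.46-fold higher. Set against the median gene, Asns had a log2 ratio of 1.67.

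By level in the wild-type library the 10 genes ran from Asns through Shmt2, Phgdh, Mthfd1, Shmt1, Psat1, Mthfd2, Psph and Mthfd1l to Aldh1l2. In the knockout library the order was Asns, Phgdh, Shmt2, Psat1, Mthfd2, Mthfd1, Shmt1, Psph, Aldh1l2 and Mthfd1l. The cytosolic genes Mthfd1 and Shmt1 thus stood above Psat1 and Mthfd2 in the wild-type and below them in the knockout library. Neighbours such as Mthfd1 and Shmt1, or Mthfd2 and Psph in the wild-type library, were close in value, and with 1 library each their order has no error estimate.

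Genes around these enzymes did not all move with them. Over 70 measured genes of the 7 related lists (glycine cleavage, folate handling, methionine cycle, purine synthesis, aspartate and proline enzymes, serine and asparagine use, and regulators), 24 were 2-fold or more higher and 5 2-fold or more lower in the knockout library, with a median log2 ratio of 0.67. Of all measured genes 23.1% were 2-fold or more higher and 5.25% lower. With the shift of the median gene taken off, the counts over the 70 genes were 11 and 8, against 13.5% and 10.2% of all measured genes. The same shares over all measured genes apply to the counts of each list below.

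In the glycine cleavage system, which breaks glycine down to a one-carbon unit, 3 of 4 genes were measured, and 2 were 2-fold or more higher. Gcsh, the lipoate-carrying protein, stood at 32.1 TPM in wild-type RNA and 74.5 TPM in knockout RNA, and Dld, the lipoamide dehydrogenase shared with other complexes, at 68.0 against 158 TPM. Amt, the aminomethyltransferase, stood at 6.69 against 12.6 TPM, and Gldc, the glycine-decarboxylating subunit, was below the floor at 0.14 against 0.36 TPM. Set against the median gene, none (0) of the 3 reached a 2-fold difference.

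Of 12 measured folate handling genes 5 were 2-fold or more higher and 2, Aldh1l1 and Slc46a1, 2-fold or more lower, and the median log2 ratio was 0.48. The higher genes included Mthfd2l, a second mitochondrial dehydrogenase and cyclohydrolase, at 3.42 against 12.3 TPM, and Slc25a32, the mitochondrial folate carrier, at 4.26 against 12.6 TPM. The reduced folate carrier gene Slc19a1 was also among them, at 9.51 against 19.4 TPM. Slc46a1, the proton-coupled carrier that takes up dietary folate in the gut, stood at 17.2 against 7.56 TPM. Ggh, which trims folate polyglutamate tails, was the second most abundant gene of the list in the wild-type library and the most abundant by mean, at 129 against 152 TPM. Relative to the median gene 2 genes of this list were 2-fold or more higher and 2 lower.

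As deposited, the measured purine synthesis genes were all higher in the knockout library, as were 70.2% of all measured genes. Relative to the median gene, Prps2 (log2 ratio -0.27) and Gart (-0.22) were lower and the other purine genes higher. As deposited, genes of the methionine cycle and transsulfuration differed in both directions. Of 8 measured purine synthesis genes 2 were 2-fold or more higher, Paics at 25.4 against 67.0 TPM and Pfas at 5.41 against 13.4 TPM, and the median log2 ratio was 0.64. Set against the median gene, 1 purine gene reached a 2-fold higher level and 0 a 2-fold lower one. The formyltetrahydrofolate-using enzymes of the pathway stood at 24.3 against 27.3 TPM (Gart) and 61.1 against 110.3 TPM (Atic), and Prps2, which makes the ribose phosphate donor, stood at 14.4 against 15.6 TPM. Of 8 measured genes of the methionine cycle and transsulfuration 2 were 2-fold or more higher and 1 lower, with a median of 0.60, and 1 and 1 after the shift of the median gene was taken off. The higher ones were the methionine synthase gene Mtr (2.38 against 5.55 TPM) and Mtrr (3.93 against 11.2 TPM), which reactivates that enzyme. Bhmt2, a homocysteine methyltransferase, stood at 2.77 against 0.11 TPM, so only its wild-type value was above 1 TPM. Its log2 ratio was -3.77, or -1.76 with a pseudocount of 1 TPM, and it dropped out at a floor of 5 TPM. Mat2a, which makes S-adenosylmethionine, stood at 125 against 207 TPM, and Ahcy, which clears S-adenosylhomocysteine, at 94.2 against 87.3 TPM.

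Among 14 measured aspartate, glutamine and proline enzymes 3 were 2-fold or more higher and 1 lower, with a median log2 ratio of 0.38, close to the median gene, and 1 and 1 after that shift was taken off. The proline synthesis genes Pycr1 and Aldh18a1, both among the higher ones, stood at 7.11 against 16.1 TPM and 35.8 against 74.3 TPM. Ass1, which uses aspartate to make argininosuccinate, stood at 91.1 against 30.9 TPM, and the glutamine synthetase gene Glul at 191 against 263 TPM. Of the asparaginase genes in the list, Asrgl1 stood at 1.69 against 1.17 TPM and the more abundant Aspg at 31.7 against 31.8 TPM. Among 16 measured genes of serine and asparagine use and transport 5 were 2-fold or more higher and none (0) lower, with a median of 0.49, but with the shift taken off 1 was higher and 2 were lower, so the balance of this list turned with the scaling. These 5 were Slc1a4, a carrier of neutral amino acids including serine (9.15 against 39.4 TPM), the seryl- and asparaginyl-tRNA synthetase genes Sars (57.55 against 138 TPM) and Nars (111 against 232 TPM), Serinc1 (32.6 against 67.4 TPM) and Sfxn3 (9.31 against 19.0 TPM). Serinc2 stood at 538 against 270.2 TPM, and Sptlc2, a serine palmitoyltransferase subunit that uses serine for sphingolipids, at 85.5 against 53.0 TPM.

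**Figure D4:**
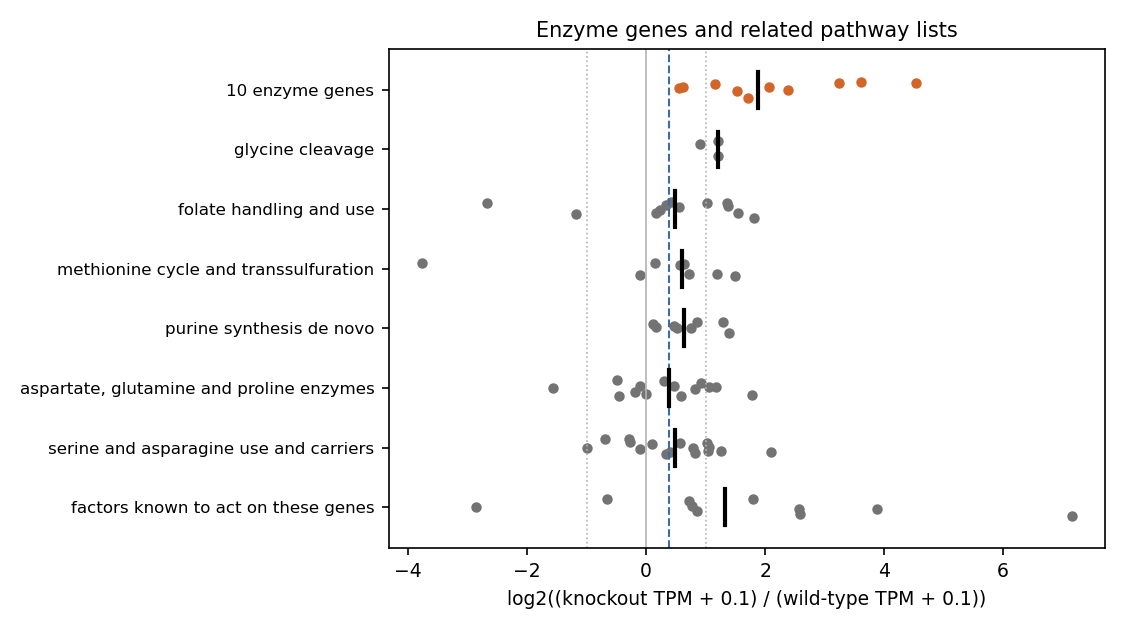
Log2 ratio of knockout to wild-type TPM + 0.1 for the 10 enzyme genes (orange) and the measured genes of the 7 related lists (grey), 1 point a gene, shifted up or down at random for legibility. Black bars mark the median of each list, the dashed blue line the median of all measured genes (0.39), the solid grey line equal levels and the dotted lines a 2-fold difference. The enzyme genes have a median of 1.88, and the lists other than glycine cleavage (1.21) and the regulators (1.32) have medians of 0.38 to 0.64.

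Of 10 genes for factors known to act on these enzymes, 5 were 2-fold or more higher and 1 2-fold or more lower, with a median log2 ratio of 1.32, and 5 and 2 with the shift taken off. Besides Atf4 the higher genes were Ddit3, an ATF4 target and partner (14.3 against 211 TPM), Trib3, a pseudokinase induced by ATF4 (0.26 against 51.4 TPM), Atf5, a factor related to Atf4 (23.4 against 140.9 TPM), and Myc, a general regulator of growth (22.7 against 135.5 TPM). Only the knockout value of Trib3 was above 1 TPM, and its log2 ratio was 7.16, or 5.38 with a pseudocount of 1 TPM. Atf3 stood at 170.1 against 23.5 TPM, 7.25-fold lower, and Cebpb, a C/EBP factor, at 79.5 against 50.4 TPM. The list therefore did not move one way.

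Other features of the libraries differed along with the enzyme genes, and their part in the results was not tested. Proliferation markers were higher in 6 of 6 genes in the knockout library, as were 70.2% of all measured genes. The 6 markers summed to 297 and 519 TPM, a 1.75-fold difference, and 1 of them, Pcna, was 2-fold or more higher. Relative to the median gene, Ccnb1 (log2 ratio -0.28) and Mki67 (-0.11) were lower. Mcm2 (0.24), Top2a (0.25), Mcm5 (0.36) and Pcna (0.87) were higher on this scale, each within 2-fold. General epithelial markers were lower in 6 of 6 genes, with sums of 23269 and 13491 TPM. Goblet cell markers, lower in 4 of 4 genes, summed to 16187 and 6863 TPM, and the enterocyte or colonocyte list to 9003 and 17415 TPM, chiefly through Car1, a carbonic anhydrase gene known for its high level in mouse colon, at 6272 against 15252 TPM. Fibroblast markers were higher in 5 of 6 genes and summed to 33.8 and 124 TPM, or to 30.02 and 59.2 TPM without Col1a2 (3.76 against 64.4 TPM), while Col1a1 stood at 7.95 against 8.05 TPM and Col3a1 at 5.73 against 3.18 TPM. Markers of T cells (4 of the 5 were in the table and 4 lower, 35.7 and 14.0 TPM), myeloid cells (5 of 5 lower, 22.5 and 9.32 TPM) and red cells (4 of 4 lower, 275.6 and 11.3 TPM) summed to less in the knockout library, and endothelial markers to 1.47 and 1.46 TPM. The 7 stem cell markers summed to 180.5 and 223 TPM, chiefly through Prom1 (120 against 150 TPM), and 4 of them were higher. The other higher ones were Sox9 (21.3 against 39.2 TPM), Axin2 (16.9 against 19.25 TPM) and Ascl2 (3.88 against 4.83 TPM). The 3 lower ones were Smoc2 (15.5 against 7.72 TPM), Lgr5 (3.13 against 1.55 TPM) and Olfm4 (0.20 TPM against a listed 0). The defining markers Lgr5 and Olfm4 were thus low in cells labelled as stem cells, whereas Prom1 and Sox9 were not. Sis, a small intestinal brush border gene, stood at 0.05 against 0.29 TPM. Sis and Car1 are 2 genes of the enterocyte or colonocyte list and do not speak for the whole list. In this list 3 genes were higher and 3 lower in the knockout library. Fabp2 stood at 135 against 757 TPM and Alpi at 42.6 against 33.7 TPM. Krt20 stood at 2065 against 919 TPM and Slc26a3 at 489 against 453 TPM. The tissue of origin was not tested. The Y-linked genes Ddx3y, Kdm5d, Uty and Eif2s3y summed to 1.42 and 22.8 TPM, so Y-linked RNA and genotype cannot be told apart here. Btnl1 stood at 59.3 against 65.4 TPM, a gene-level value that does not separate circular from linear RNA and so does not check the genotype.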

How the data were processed

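The data were 1 table of gene values for 1 wild-type and 1 circBtnl1 knockout library. The authors deposited FPKM values and TPM values, per the file headers, rounded to 2 decimals. Build mm10 and the tools RSEM, Bowtie2 and DESeq2 are named without versions or roles, per the submitters' processing notes. Of 18068 lines 1 had no values, leaving 18067 genes, and 0 columns of values were left out. Depth was not given and was estimated from low FPKM values, which should match whole reads. They lay within 0.15 of whole reads for 64.4% of 146 genes at 18500000 reads (wild-type). For the knockout library this held for 61.4% of 207 genes at 16000000 reads. Chance gives 30% at 1 depth fixed in advance. These were the best of the depths tried, and the genes used changed with depth, so 30% is too low a mark for them. Other offsets to transcript length gave up to 33750000 and 22500000 reads, so read numbers are rough and no interval was computed.

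Ratios were log2((knockout TPM + 0.1)/(wild-type TPM + 0.1)), which understates differences of low genes. Plain folds are ratios of TPM. Genes whose mean reached 1 TPM counted as measured. A 2-fold difference describes 2 libraries and is no test. The calculation was tested on simulated libraries with known ratios and counting noise only. They held no variation between mice and no shift of the typical gene, so they check the arithmetic and not the ratios found here. Positions, exons and overlaps came from GENCODE M21 (GRCm38), near copies from BLAST+ 2.17.0 and promoters from RefSeq. Analyses used Python 3.11.15 with pandas 2.3.3. Alternatives varied the pseudocount, the unit, the scaling and the floor.

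The 10 genes and the lists were chosen with earlier results of these data known. Named were the 10 genes, Btnl1, Atf4, Aldh1l1, Mthfd2l and, in each list, the 2 highest and 2 lowest ratios and the most abundant gene. Genes that make up a count of 5 or fewer, Gldc, Aspg, overlapping genes and Y-linked genes were named after their values were seen. Some genes that these rules take are not reported here, though they are in the counts.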

Additional observations from a re-analysis of the deposited data

How the results depend on the processing

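Across 10 alternatives each of the 10 enzyme genes stayed higher in the knockout library (100 of 100 values above 0), and none was 2-fold lower. The settings that changed only the pseudocount or the floor could not change the sign of a ratio, so their part of this count was fixed in advance. FPKM is TPM times 1 factor per library, so it shifts all genes about alike. Trimmed mean scaling, centring on the median gene and upper quartile scaling take about 0.39, 0.39 and 0.21 off each log2 ratio. These shifts are below the smallest log2 ratio of the 10 genes (0.55, Shmt1), so these settings could not turn a sign either. The number at least 2-fold higher was 8 with pseudocounts of 1 or 0.01 TPM, from FPKM, with no floor or with a floor of 5 TPM. It was 7, without Mthfd1l, under trimmed mean scaling, upper quartile scaling and centring on the median gene, on genes of like level or on genes of like GC content. The last of these was chosen after seeing the data. The median log2 ratio of the 10 genes ranged from 1.49 to 1.94, and was 1.71 without Aldh1l2. The summed level differed 4.28-fold from FPKM and 3.13-fold under trimmed mean scaling. The difference between mitochondrial and cytosolic folate genes ranged from 2.04 to 2.31.

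The related lists depended on the scaling. Together they held 24 genes at least 2-fold higher, but 11 under trimmed mean scaling and centring on the median gene, 13 when centred on genes of like level and 12 on genes of like GC content. The number at least 2-fold lower was 5, but 8 under trimmed mean scaling and centring on the median gene. The median of the aspartate, glutamine and proline list turned to -0.0074 under trimmed mean scaling and -0.0065 when centred on the median gene, and that of the methionine list to -0.024 when centred on genes of like GC content. Trimmed mean scaling and centring on the median gene take about 0.39 off each log2 ratio, whatever the level of the gene. The shift itself differed by level. Its median was -0.05 in the tenth of genes by mean level that holds Asns and 0.76 in the tenth that holds Bhmt2. Why the methionine list turned under the GC setting was not tested. No paired analysis was possible because each genotype had 1 library, and for the same reason no library could be left out. With 1 library each, the spread between mice is unknown.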
